A study of Homo sapiens with 2 samples.

Results

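The 36 genes of homologous recombination and of the Fanconi anemia pathway were examined among 27685 genes in 2 libraries of PLC/PRF/5 cells. The genes were a fixed set of symbols, matched by their Entrez IDs in both libraries. The TPM of their transcripts, an abundance corrected for transcript length that adds up to 1000000 in each library, was summed per gene. A gene was described if it reached 1 TPM in one library or both, which held for all 36 members and for 14450 genes of the whole series. No member stood near that limit, since the weakest, BRIP1, was at 5.72 TPM in the DMSO library and 2.80 TPM in the JIB-04 library.

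PLC/PRF/5 is an established human hepatocellular carcinoma cell line. One culture was exposed for 24 h to 6 µM JIB-04, a pan-inhibitor of Jumonji histone lysine demethylases, and the other to DMSO, the solvent, for the same time. One sample label calls the control untreated, whereas its title and the study's methods name DMSO. The comparison asks how the inhibitor's presence goes with the transcript levels of these repair genes. Each condition had 1 library of 1 cell line, so no difference has a replicate check, no test was made, and the intervals given cover counting error only. In bulk RNA, fewer cells that express a gene and less RNA of that gene per cell cannot be told apart.

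Homologous recombination repairs a broken DNA molecule by copying the sister chromatid, so it works mainly while cells replicate and before they divide. The break is sensed and its ends are trimmed to single strands, BRCA1, PALB2 and BRCA2 prepare them for strand exchange, and the joined molecules are later taken apart. The Fanconi anemia pathway handles crosslinks between the strands: a core complex attaches ubiquitin to the clamp of FANCD2 and FANCI, and the incised molecule is then passed to recombination. Many of these genes are known as targets of cell cycle transcription factors of the E2F family and of the DREAM complex. These act on E2F sites and cell cycle homology elements near the start of transcription. CCAAT boxes were searched as well, but they are not the sites of these factors.

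Promoter sequence was looked up for the members because nearly all of them were lower with JIB-04. The RefSeq table, on the build GRCh38.p14, held 44 windows for 32 of the 36 members, each reaching from 250 bases before to 50 bases after an annotated start. RAD54B, FANCI, NBN and RMI2 had no entry. The 250 bases before the start are shown for the 4 members with the lowest log2 ratios in the comparison and for the one with the highest. These are UBE2T (chr1:202341937-202342186), FANCG (chr9:35079943-35080192), FANCB (chrX:14873070-14873319), PALB2 (chr16:23641311-23641560) and TOP3A (chr17:18314995-18315244). All 5 lie on the minus strand and are written along the gene, with matches to the 3 motifs in capitals.
UBE2T: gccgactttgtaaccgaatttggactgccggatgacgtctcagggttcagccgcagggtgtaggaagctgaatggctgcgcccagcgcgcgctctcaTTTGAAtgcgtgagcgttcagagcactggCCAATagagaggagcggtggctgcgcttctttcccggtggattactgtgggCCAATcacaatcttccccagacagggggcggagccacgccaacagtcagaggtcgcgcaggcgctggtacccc
FANCG: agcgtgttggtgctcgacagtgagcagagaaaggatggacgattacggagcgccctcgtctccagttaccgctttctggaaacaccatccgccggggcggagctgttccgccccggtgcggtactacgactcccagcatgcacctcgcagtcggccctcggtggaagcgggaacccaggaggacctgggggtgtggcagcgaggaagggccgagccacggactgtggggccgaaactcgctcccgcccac
FANCB: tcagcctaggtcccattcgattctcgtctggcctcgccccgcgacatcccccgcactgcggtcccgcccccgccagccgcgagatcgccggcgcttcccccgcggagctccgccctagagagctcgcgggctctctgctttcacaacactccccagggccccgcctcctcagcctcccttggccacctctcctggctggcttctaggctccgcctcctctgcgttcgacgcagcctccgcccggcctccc
PALB2: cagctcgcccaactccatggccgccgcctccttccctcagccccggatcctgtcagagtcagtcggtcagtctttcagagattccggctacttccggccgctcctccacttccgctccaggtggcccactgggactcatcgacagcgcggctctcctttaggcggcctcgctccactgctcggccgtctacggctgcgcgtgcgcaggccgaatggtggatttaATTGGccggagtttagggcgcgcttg
TOP3A: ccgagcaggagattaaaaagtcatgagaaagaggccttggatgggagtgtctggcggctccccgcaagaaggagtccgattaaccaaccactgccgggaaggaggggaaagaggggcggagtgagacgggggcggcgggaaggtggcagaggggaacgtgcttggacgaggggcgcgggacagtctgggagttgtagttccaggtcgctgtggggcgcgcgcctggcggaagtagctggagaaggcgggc
The capitals in UBE2T are 1 TTTGAA, with its first base at position -153 counted from the start base as 0, and 2 CCAAT words at -124 and -73. The capitals in PALB2 are 1 CCAAT on the opposite strand at -26. The stretches of FANCG, FANCB and TOP3A held none of the words searched. The first 4 of these genes had the lowest ratios and TOP3A the only ratio above 0. Matches stood in some but not all of the 4 lowest, and none of them was an E2F word. Whether a match goes with the ratio was not tested.

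Motifs were searched as plain letters on both strands, and no match of one motif overlapped a match of another in the members' windows. The E2F words were TTTCGCGC, TTTGGCGC, TTTCCCGC and TTTGCCGC, and 6 of 32 members (18.8%) held at least 1 of them, namely XRCC2, FANCA, FANCC, FANCD2, EXO1 and RMI1. These words stood in 3.31% of all 35116 promoters of the table, in 3.99% of its genes and in 6.67% of its described genes. The median log2 ratio was -0.63 for the 6 members with an E2F word and -0.78 for the 26 without. CCAAT was held by 15 members (46.9%), against 34.6% of promoters, 39.7% of genes and 43.3% of described genes. The median log2 ratio was -0.84 with CCAAT and -0.63 without. TTTGAA, the core of the cell cycle homology element, was held by BRIP1, FANCC, UBE2T and ATM (12.5% of members, against 15.2% of promoters, 18.2% of genes and 13.3% of described genes). Its median log2 ratio was -0.75 both with and without the word. Such a match is a string of letters and not a measured site of binding.

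Levels of nearly all members were lower in the JIB-04 library. Their summed level was 1092 TPM in the DMSO library and 611 TPM in the JIB-04 library, which is 56.0% of the former. The median level over members was 23.9 and 13.5 TPM in the same order, and single members ranged from 5.72 to 139.6 TPM and from 2.80 to 49.2 TPM. The log2 ratio was formed after adding 1 TPM to both values, with the JIB-04 library over the DMSO library, which understates the change of weak genes. The median log2 ratio of the members was -0.72, with a middle 50% from -0.99 to -0.60, while that of all described genes was -0.15, with a middle 50% from -0.51 to 0.25. Thus the members lay lower and closer together than genes at large, with a standard deviation of 0.33 against 0.70. The genes at large were not matched to the members in level for these values. They were described from 1 TPM upward, whereas every member had at least 5.72 TPM in the DMSO library.

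**Figure D1:**
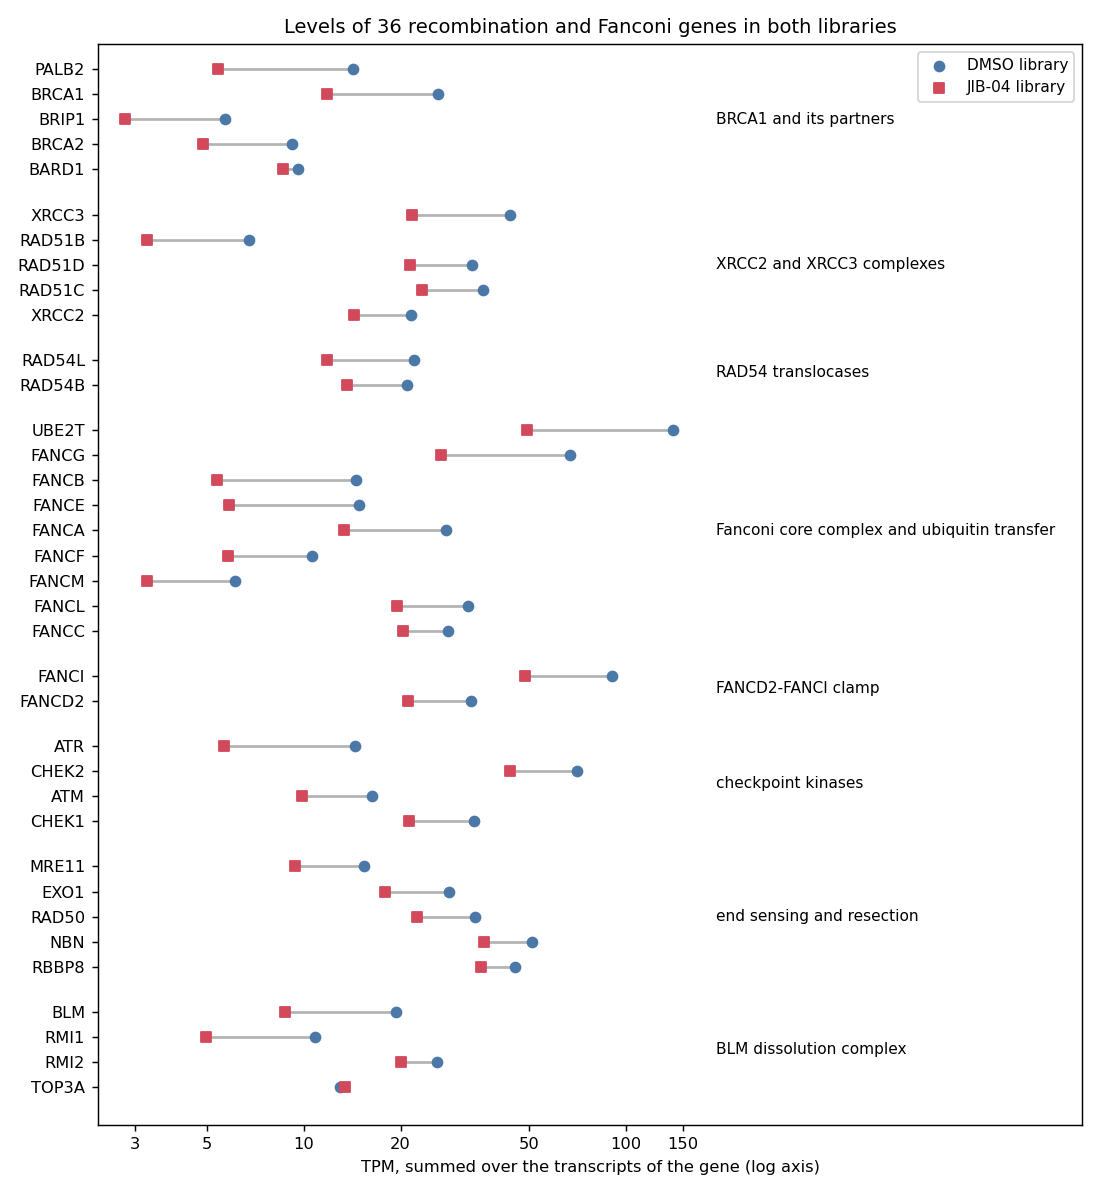
Level of each member in the DMSO library (circles) and the JIB-04 library (squares), in TPM on a log axis, grouped by role. Squares lie to the left of circles for 35 of the 36 genes, from UBE2T at 139.6 and 49.2 TPM to BRIP1 at 5.72 and 2.80 TPM, and TOP3A is the exception.

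Of the 36 members, 35 had a log2 ratio below 0, against 60.3% of all described genes. A ratio of 0.5 or less, called 2-fold lower, was reached by 8 members (22.2%), against 6.88% of all described genes and 7.24% of the 9670 genes in the same range of mean TPM, of which 4.77% were 2-fold higher. The 8 genes were UBE2T, FANCG, FANCB, PALB2, ATR, FANCE, BRCA1 and BLM. No member was 2-fold higher, against 5.99% of all described genes. At 1.5-fold, 27 members were lower, against 21.0%. The counting interval lay wholly below 0 for 34 members, against 46.3% of all genes, and wholly above 0 for none, against 28.0%. These shares of all genes were not matched for level. Only BARD1 and TOP3A had intervals that held 0. BLM at -1.07 and BRCA1 at -1.08 stood just past 2-fold, and FANCA at -0.99, RMI1 at -0.99 and XRCC3 at -0.98 just short of it, so the count of 8 depends on small differences.

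When the median of all genes that reached 10 TPM in both libraries was set to a log2 ratio of 0, a shift of -0.15 was taken out of every ratio before the pseudocount. BARD1 then stood at -0.0047. BRCA1 and BLM were then no longer 2-fold lower, and 6 members remained so. That scaling also turned the split over all described genes from 6.88% lower and 5.99% higher to 4.70% lower and 7.67% higher. The members' median became -0.59, and 34 members stayed below the median of all genes, as they did without it. Markers of dividing cells were lower as well. All 15 had ratios below 0, with a median of -1.10, and their summed levels were 2279 and 1154 TPM, with the DMSO library first here and in all pairs of values that follow. Their part in the members' lower levels was not tested.

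**Figure D2:**
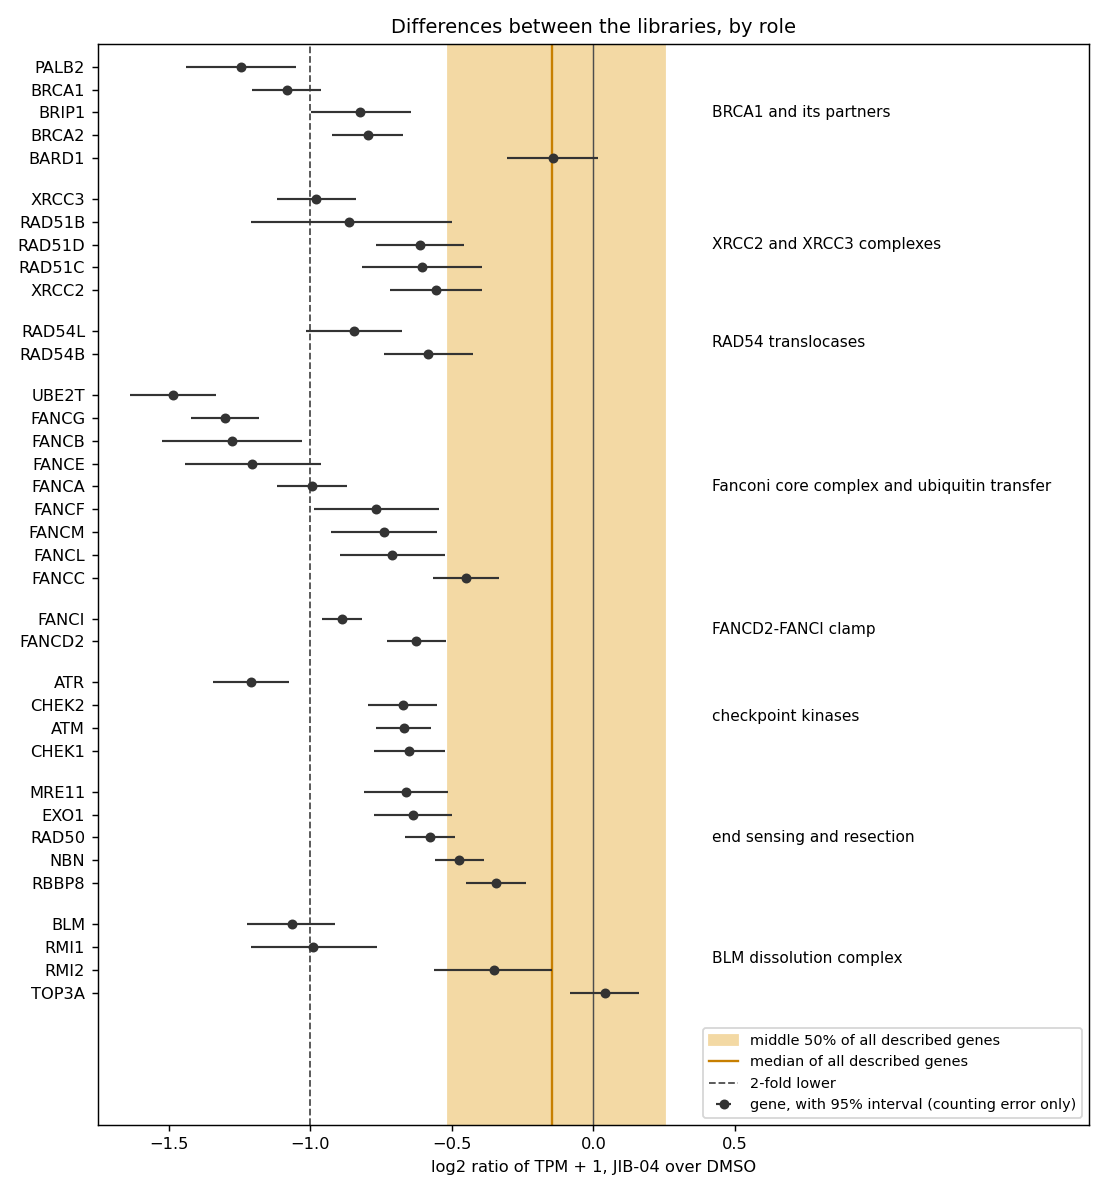
Log2 ratio of TPM + 1, JIB-04 over DMSO, for each member by role, with its 95% interval from estimated fragments (counting error only). The shaded band is the middle 50% of all 14450 described genes, -0.51 to 0.25, around their median of -0.15, and 34 members lie left of that median.

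The Fanconi core complex and its ubiquitin-conjugating enzyme held 4 of the 8 genes that were 2-fold lower, as 6.88% of all described genes were. One of these 4, FANCB, was not 2-fold lower by its share of all fragments. The 9 members of this group had a median log2 ratio of -0.99, and their summed levels were 341 and 149 TPM. UBE2T, the E2 enzyme that carries ubiquitin to the FANCD2 and FANCI clamp (chr1:202300785-202311094 on hg19, the build of all gene and exon positions that follow), measured 140 TPM in the DMSO library and 49.2 TPM in the JIB-04 library. Its log2 ratio was -1.48, with an interval from -1.64 to -1.33 on 1509 and 440 estimated fragments, and its promoter is the one printed above with both CCAAT and TTTGAA. UBE2T was the most abundant member in both libraries and had the lowest ratio of all 36. All 7 of its counted exon parts were at least 2-fold lower, between -1.60 and -1.35. An exon part here is a stretch of exonic bases held by the same transcripts, counted if it had at least 50 bases and a coverage worth 1 TPM or more in one library or both.

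FANCG, a scaffold protein of the core complex (chr9:35073835-35080013), was at 67.2 and 26.7 TPM (log2 ratio -1.30, interval -1.42 to -1.18). Coverage was lower in all 13 of its counted exon parts and 2-fold lower in 12. FANCE, which joins the core complex to FANCD2 (chr6:35420138-35434881), was at 14.9 and 5.88 TPM (log2 ratio -1.21, interval -1.44 to -0.96 on 452 and 148 fragments). FANCB (chrX:14861529-14891191), a partner of the ligase FANCL in the catalytic module, was at 14.5 and 5.39 TPM (log2 ratio -1.28, interval -1.52 to -1.03). The FANCB value rests in part on one short transcript. NR_136707, of 593 bases, held 43.1% of the gene's TPM with DMSO and 5.07% with JIB-04, at 6.25 and 0.27 TPM. By its share of all estimated fragments, which does not weigh transcripts by length, FANCB stood at -0.79 and was not 2-fold lower.

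The rest of the core complex was lower by smaller amounts. FANCA, which binds FANCG, measured 27.6 and 13.3 TPM (log2 ratio -0.99, interval -1.12 to -0.87). All 43 of its counted exon parts were below 0. FANCF, an adaptor made from a single exon, was at 10.6 and 5.83 TPM (log2 ratio -0.77). FANCM, the translocase that anchors the complex at stalled forks, was at 6.12 and 3.27 TPM (-0.74), and FANCL, the ubiquitin ligase, at 32.4 and 19.4 TPM (-0.71). FANCC, the partner of FANCE and FANCF, had the smallest difference of the group, with 28.1 and 20.3 TPM and a log2 ratio of -0.45 (interval -0.56 to -0.33). Exonic bases shared with a gene on the opposite strand made up 22.9% of FANCA (with ZNF276) and 26.1% of FANCL (with VRK2), in values the authors made with a strand setting. The genes of one protein complex spanned log2 ratios from -1.30 for FANCG to -0.45 for FANCC, and the intervals of these 2 did not overlap. The substrates were lower as well. FANCI measured 90.6 and 48.6 TPM (log2 ratio -0.89, interval -0.96 to -0.82). FANCD2 measured 33.1 and 21.1 TPM (-0.63, interval -0.73 to -0.52).

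Among BRCA1 and its partners, 2 of 5 were 2-fold lower, against 6.88% of all described genes, and the group's median log2 ratio was -0.82. PALB2, which bridges BRCA1 and BRCA2 (chr16:23614483-23652678), measured 14.2 TPM in the DMSO library and 5.42 TPM in the JIB-04 library. Its log2 ratio was -1.24 (interval -1.44 to -1.05), and 9 of its 13 counted exon parts were 2-fold lower. BRCA1 itself (chr17:41196312-41277500), the ubiquitin ligase that favors recombination over end joining, was at 26.1 and 11.8 TPM. Its log2 ratio of -1.08 had an interval from -1.20 to -0.96, and all 23 of its counted exon parts were below 0. BRCA2, which acts with PALB2 in strand exchange, was at 9.19 and 4.87 TPM (log2 ratio -0.80, interval -0.92 to -0.67). BRIP1, a helicase bound by BRCA1, was at 5.72 and 2.80 TPM (-0.82, interval -0.996 to -0.646). BARD1, the obligate partner of BRCA1 in the ligase, stood apart at 9.63 and 8.63 TPM, a log2 ratio of -0.14 with an interval from -0.30 to 0.02. The intervals of BRCA1 and BARD1 did not overlap, although both proteins work as one dimer.

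BARD1 read along its length was less even than that single value. Its last exon (chr2:215590370-215593732) makes up 3363 of its 5506 exonic bases, and its coverage on the TPM scale was 3.29 with DMSO and 5.67 with JIB-04. Over all other exonic bases coverage was 18.2 with DMSO and 12.8 with JIB-04, a log2 ratio of -0.47. Of the 11 counted parts, 10 were lower with JIB-04 and the last exon alone was higher. Where the most abundant transcript stood for the gene, BARD1 had a log2 ratio of 0.43, so its direction depends on the summary. NBN and MRE11 went the other way at that end. The last exon of NBN had a coverage of 32.1 and 14.8 on the TPM scale, a log2 ratio of -1.07, against -0.27 over its other bases. In MRE11, the long last exon part was at 5.89 and 2.19.

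With the exonic bases of every gene split at the midpoint, both parts were below 0 for 34 of the 36 members. That count was not made over all genes. The median log2 ratio was -0.77 in the 5′ part and -0.70 in the 3′ part, and 10 and 9 of the 36 members were 2-fold lower, against 6.33% and 8.24% of 14338 described genes that could be split. The gap between the parts was read for genes with at least 100 estimated fragments in each part and library. It reached 0.5 or more for 2 of 26 members, BARD1 and NBN, against 6.48% of 9276 genes. Such a gap was thus not particular to the members. MRE11 was not among the 26, since it had 57 estimated fragments in its 3′ part in the JIB-04 library. Without that limit 5 members had such a gap, which adds MRE11, FANCB and RAD51B. FANCB was at -1.11 in the 5′ part and -0.45 in the 3′ part, and RAD51B at -0.67 and -0.06. BARD1 was at -0.38 (interval -0.57 to -0.18) in the 5′ part and 0.64 (0.34 to 0.93) in the 3′ part, and NBN at -0.27 (-0.37 to -0.17) and -0.96 (-1.13 to -0.80). The median 5′ to 3′ ratio of coverage over the members was 0.85 with DMSO and 0.80 with JIB-04. Over all members, 650 of 686 counted exon parts (94.8%) were lower with JIB-04, and in 21 members every counted part was. The share of lower parts was not computed over all genes, and parts of the same gene are not independent.

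**Figure D3:**
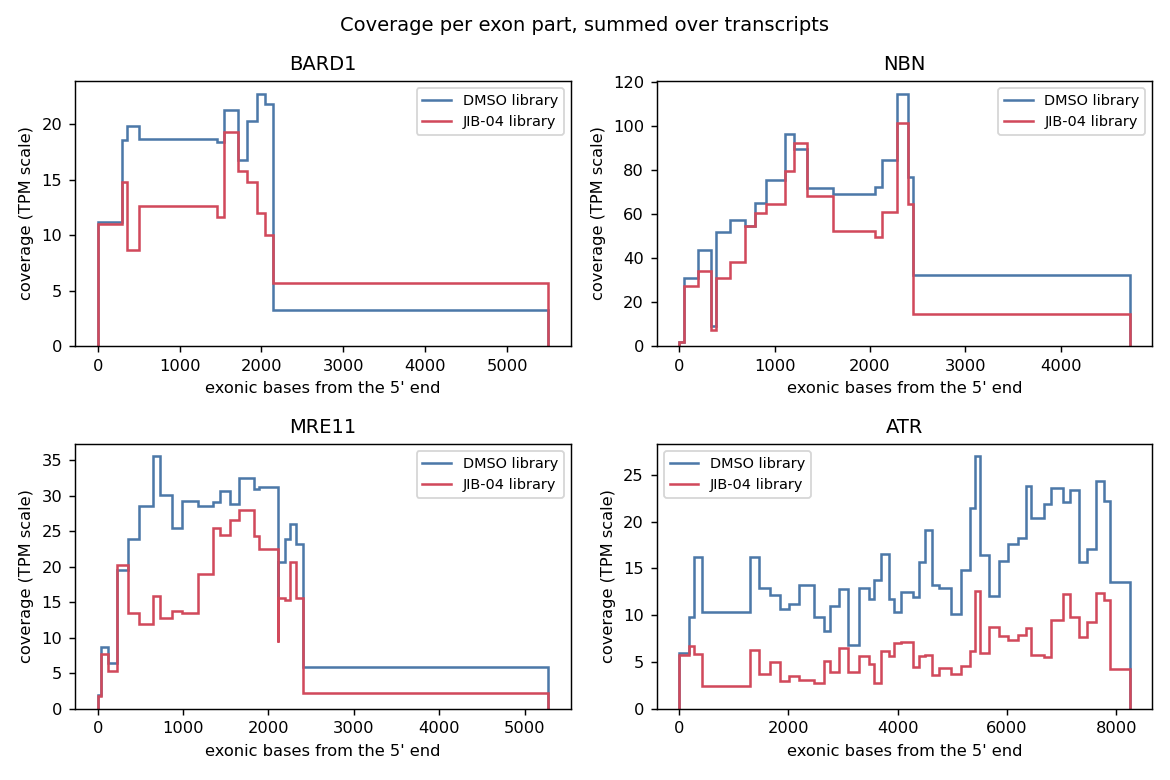
Coverage per exon part on the TPM scale (y axis) along the exonic bases from the 5′ end (x axis) of BARD1, NBN, MRE11 and ATR, in the DMSO (blue) and JIB-04 (red) libraries. The last exon of BARD1 is higher with JIB-04 (3.29 and 5.67) while the rest of the gene is lower, the last exon of NBN shows a wider gap than the rest, and ATR is lower along its whole length.

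The genes of the XRCC2 and XRCC3 complexes, which assist strand exchange, were all lower and none by 2-fold, with a median log2 ratio of -0.61. Over all described genes, 60.3% were lower and 6.88% were 2-fold lower. XRCC3, which pairs with RAD51C, was at 43.6 and 21.6 TPM (log2 ratio -0.98, interval -1.12 to -0.84). RAD51B was at 6.76 and 3.26 TPM, and its log2 ratio of -0.86 had a wide interval from -1.21 to -0.50, since it rests on 147 and 62 fragments. RAD51C, a subunit of both complexes, was at 35.9 and 23.3 TPM (-0.60), RAD51D at 33.3 and 21.4 TPM (-0.61), and XRCC2, the partner of RAD51D, at 21.6 and 14.4 TPM (-0.55). RAD51D shares 16.4% of its exonic bases with the readthrough gene RAD51L3-RFFL on the same strand.

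RAD54L, a motor protein that drives strand invasion, was at 21.9 and 11.8 TPM (log2 ratio -0.84, interval -1.01 to -0.68). Its relative RAD54B was at 21.0 and 13.7 TPM (-0.58, interval -0.74 to -0.42). The RAD54B value is uncertain, because 63.7% of its exonic bases are shared with FSBP on the same strand and the division of reads between them is the authors' estimate.

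ATR, the kinase that answers to single-stranded DNA at stalled forks (chr3:142168077-142297668), stood lowest among the 4 checkpoint kinases. It measured 14.4 TPM in the DMSO library and 5.68 TPM in the JIB-04 library (log2 ratio -1.21, interval -1.34 to -1.08). All 47 of its counted exon parts were below 0, 32 of them by 2-fold. ATM, the kinase that answers to double-strand breaks, was at 16.3 and 9.86 TPM (-0.67, interval -0.77 to -0.57). The effector kinases had similar ratios, with CHEK1, the target of ATR, at 33.9 and 21.2 TPM (-0.65) and CHEK2, the target of ATM, at 70.3 and 43.7 TPM (-0.67). The interval of ATR lay below those of the other 3 kinases. CHEK2 was at -1.02 in the 5′ part of its bases and at -0.53 in the 3′ part.

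The genes that sense and trim broken ends had the smallest median difference of the groups by role. None was 2-fold lower, against 6.88% of all described genes. The group's median log2 ratio was -0.58, close to the -0.61 of the XRCC2 and XRCC3 complexes, and some single genes of other groups differed less. In the complex that binds the ends, the nuclease MRE11 was at 15.4 and 9.40 TPM (-0.66), the tether RAD50 at 34.1 and 22.5 TPM (-0.58) and NBN, its signaling subunit, at 51.0 and 36.4 TPM (-0.47, interval -0.56 to -0.39). EXO1, the exonuclease of long-range resection, was at 28.3 and 17.9 TPM (-0.64). RBBP8, which encodes CtIP and starts resection with that complex, was at 45.2 and 35.4 TPM (-0.34, interval -0.45 to -0.24), and its interval still lay below the all-gene median of -0.15.

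The complex that dissolves joined molecules was uneven. BLM, its helicase (chr15:91260558-91358692), measured 19.4 TPM in the DMSO library and 8.76 TPM in the JIB-04 library (log2 ratio -1.07, interval -1.22 to -0.91), and all 22 of its counted exon parts were below 0. RMI1, a scaffold, was at 10.8 and 4.97 TPM (-0.99, interval -1.21 to -0.76), whereas its partner RMI2 was at 25.9 and 20.1 TPM (-0.35, interval -0.56 to -0.14). The interval of RMI2 ended at -0.1447 and so just held the all-gene median of -0.1451. TOP3A, the topoisomerase of the complex (chr17:18174743-18218406), measured 13.0 TPM in the DMSO library and 13.4 TPM in the JIB-04 library. Its log2 ratio of 0.04 (interval -0.08 to 0.16) was the only one of the 36 above 0, and 62.8% of all described genes had a lower ratio. Of its 19 counted exon parts, 9 were below 0, and they ranged from -0.61 to 0.54.

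Transcripts within members were also compared, as the deposited files divide each gene among annotated RefSeq transcripts. In ATM, NM_000051 was at 11.8 TPM with DMSO and listed at 0 with JIB-04, while NM_001351834 was at 2.17 and 8.23 TPM, or 13.3% and 83.5% of the gene. These differ by 88 bases, an exon that only the second holds (chr11:108095511-108095598), and coverage of that exon was 1.90 on the TPM scale with DMSO and 0 with JIB-04. The exon thus moved against the TPM of the transcript that holds it. In BRCA1, NM_007294 was at 5.72 and 6.96 TPM (21.9% and 58.9% of the gene), whereas NM_007298 was at 13.1 and 4.25 TPM and NR_027676 at 6.90 and 0.16 TPM. NM_007298 lacks 3309 bases of the large central exon (chr17:41243452-41246760), and coverage there was 17.4 and 7.16, a log2 ratio of -1.17. The last exon, held by all 6 transcripts, was at -1.06. The large exon and the shared end were therefore lower by similar amounts.

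CHEK1 and RBBP8 showed differences of the same kind. In CHEK1, NM_001274 was at 25.6 and 2.27 TPM (75.6% and 10.7% of the gene), while NM_001114121, NM_001114122 and NR_045204 were at 1.68, 0.64 and 0.54 TPM in the DMSO library and reached 6.66, 4.84 and 4.61 TPM in the JIB-04 library. The 10 counted exon parts of CHEK1 held by all 8 transcripts were all below 0, from -0.83 to -0.10. Of all its 19 counted parts, 15 were below 0, and the highest stood at 1.49. In RBBP8, NM_002894 was at 13.5 and 20.4 TPM and NM_203291 at 27.2 and 13.5 TPM, while the gene's sum was lower. Of the 24 members with at least 2 transcripts reaching a TPM of 1, the leading transcript differed between the libraries in 6, namely these 4, FANCA and FANCB. In FANCB, NM_001018113 made up 8.79% and 48.6% of the gene, and NR_136707 43.1% and 5.07%. In FANCA, NM_001286167 made up 21.9% and 47.5%, and NM_000135 56.7% and 44.5%. A share changed by at least 20 percentage points in 4 other members. NM_001308133 made up 28.4% of FANCM with DMSO and was listed at 0 with JIB-04, and NM_000465 made up 41.6% and 66.8% of BARD1. NM_002878 made up 32.7% and 11.2% of RAD51D, and NM_005432 71.2% and 50.3% of XRCC3. In the other 14 the largest change of a share ran from 0.38 to 15.0 percentage points. Transcript values are the authors' estimates from reads that several transcripts share, and no interval is given for them. Changes of leader and of share were not counted over all genes, so they cannot be called particular to the members.

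**Figure D4:**
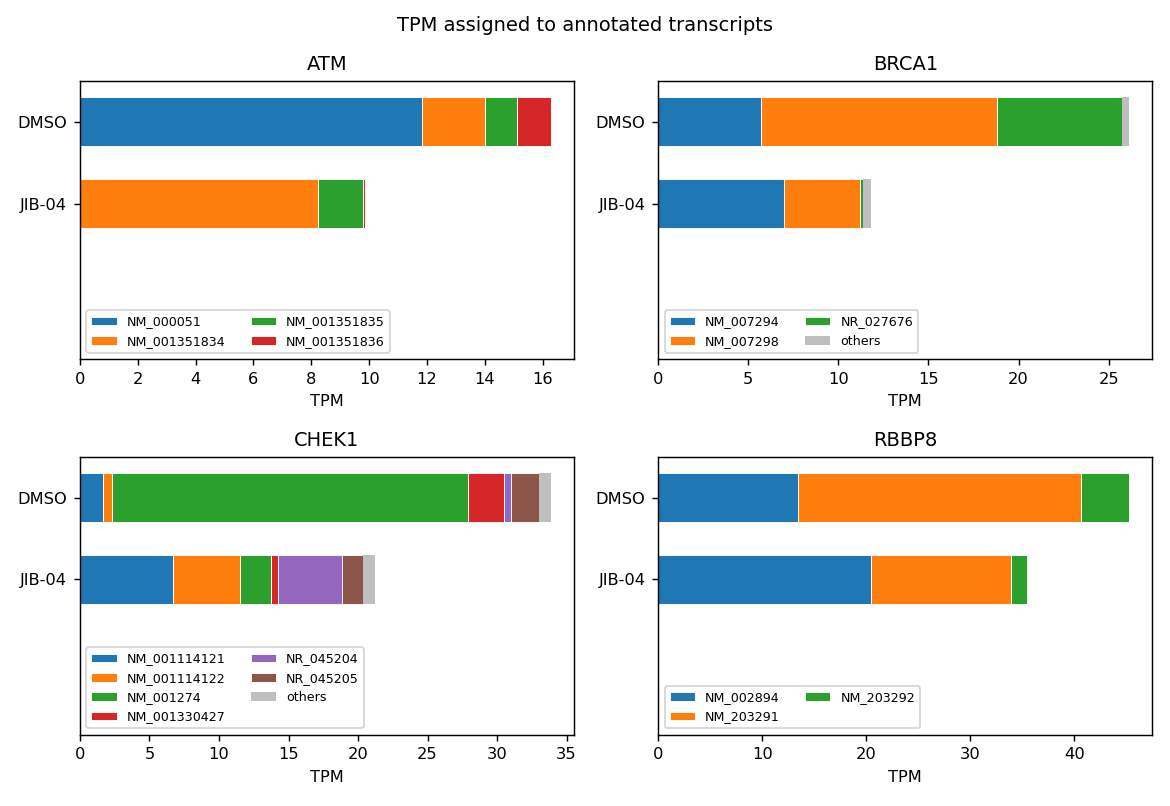
TPM assigned to each annotated transcript of ATM, BRCA1, CHEK1 and RBBP8 in the DMSO and JIB-04 libraries, as stacked bars whose length is the gene's TPM. The total bar is shorter with JIB-04 in all 4 genes, and the leading transcript changes in each, from NM_000051 to NM_001351834 in ATM, from NM_007298 to NM_007294 in BRCA1, from NM_001274 to NM_001114121 in CHEK1 and from NM_203291 to NM_002894 in RBBP8.

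Genes around the members were described from lists written from general knowledge, with earlier results of these data known. Their counts are to be read beside all described genes, of which 6.88% were 2-fold lower and 5.99% 2-fold higher. Of 30 other homologous recombination factors, 5 were 2-fold lower and none higher, with a median log2 ratio of -0.52. RTEL1, a helicase that takes apart displacement loops, was at -1.58, and PARPBP, which restrains recombination, at -1.40 (28.3 and 10.1 TPM). At the other end were SEM1, a small partner of BRCA2 (0.17), and SLX1A, a nuclease subunit with the near-identical copy SLX1B (0.39 and -0.43), whose values are uncertain. Of 20 other crosslink repair factors 2 were 2-fold lower (median -0.46), the nuclease DCLRE1A at -1.12 and CENPS, which binds FANCM, at -1.02. FAAP20 of the core complex was at 0.13. USP1 and WDR48, the 2 subunits of the enzyme that removes ubiquitin from FANCD2, stood apart, with USP1 at 63.6 and 31.9 TPM (-0.97) and WDR48 at 20.1 and 30.7 TPM (0.59). USP1 was picked after its value was seen.

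Of 24 damage signaling adaptors, 3 were 2-fold lower and none higher, against 6.88% and 5.99% of all described genes. Their median was -0.60. H2AX, the histone variant phosphorylated at breaks, was at 113 and 37.5 TPM (-1.57), and RAD9A, part of the clamp that activates ATR, at 60.5 and 20.1 TPM (-1.54). The highest were BRCC3 at 38.9 and 67.0 TPM (0.77) and UIMC1 at 17.0 and 25.7 TPM (0.57), the deubiquitinase and the ubiquitin reader of a complex that holds BRCA1 away from resection. The other subunits of that complex, picked after their values were seen, were ABRAXAS1 at -0.86, BABAM1 at -0.05 and BABAM2 at -0.03. The intervals of BABAM1 (-0.15 to 0.05) and BABAM2 (-0.17 to 0.12) held 0, so the 5 subunits did not share a direction.

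Other repair pathways had medians between those of the members and of all genes. Over all described genes 6.88% were 2-fold lower and 5.99% 2-fold higher, and the count of end joining was near the former. End joining and the 53BP1 pathway had 1 of 16 described genes 2-fold lower (median -0.41), from PAXX at -1.16 and XRCC5 at -0.92 to POLL at 0.03 and NHEJ1 at 0.38. Nucleotide excision repair had 3 of 21 (median -0.32), with ERCC2 at -1.29 and GTF2H2 at -1.05 lowest and DDB2 at 0.31 and ERCC5 at 0.45 highest. Base excision repair had 4 of 19 lower and 1 higher (median -0.46), with NEIL3 at -1.16, MUTYH at -1.12, POLB at 0.03 and NEIL1 at 5.42 and 15.7 TPM (1.38). The proliferation markers had 9 of 15 genes 2-fold lower. PLK1, a mitotic kinase, was at -1.84 and TOP2A, a topoisomerase of dividing cells, at -1.71, while TYMS was at -0.36 and MCM2 at -0.34. The members' median of -0.72 thus lay above that of the proliferation markers and below those of the 6 other repair and damage signaling lists shown here, a description of these 2 libraries only.

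**Figure D5:**
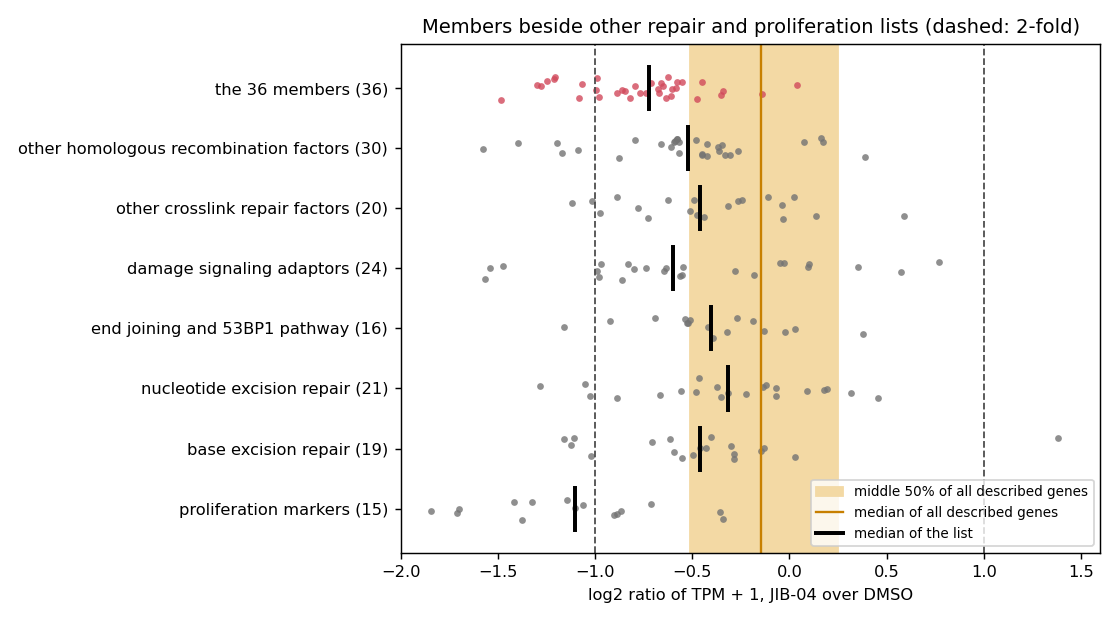
Log2 ratio of TPM + 1, JIB-04 over DMSO, for every described gene of the members (red) and of 7 other lists (grey), with the number of genes in brackets and a bar at each median. The shaded band is the middle 50% of all described genes. The medians run from -1.10 for proliferation markers through -0.72 for the members to -0.32 for nucleotide excision repair.

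Markers of the labelled cell type were found in both libraries. Liver genes AFP (131 and 151 TPM) and HNF4A (71.9 and 72.3 TPM) were present, and ALB, the main product of hepatocytes, was low at 9.74 and 4.53 TPM. The 11 hepatocyte and hepatoma markers had a median log2 ratio of -0.23 and a summed level of 9454 and 5988 TPM, with APOB (-1.62) and KRT18 (-1.02) lowest and FGB (0.32) and TTR (0.72) highest. Of 12 markers of other cell types 4 were described, summed at 173 and 193 TPM over all 12, of which CD68 was at 97.0 and 138 TPM, LYZ at 57.3 and 41.9 TPM and COL1A1 at 16.0 and 10.6 TPM. PTPRC, found on all white blood cells, was listed at 0 in both libraries. The libraries held an estimated 28187793 and 23721989 fragments, and the median half-width of the members' intervals was 0.15 on the log2 scale.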

How the data were processed

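Stranded mRNA libraries were made from PLC/PRF/5 cells kept with DMSO or with JIB-04 (6 µM, 24 h), 1 for each condition. Per the submitters' processing notes, reads were handled with FastQC 0.11.5, Trimmomatic 0.32, Bowtie2 2.2.6 and HISAT2 2.0.5 on hg19 (GRCh37), and transcripts with StringTie 1.3.3b. The authors deposited, for each annotated RefSeq transcript and exon, StringTie's coverage, and for each transcript also FPKM and TPM. These are estimates with no read counts, and the TPM of each library sums to 1000000, so more of some transcripts means a smaller share for all others. No source used here gives the read length.

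Transcript TPM was summed per Entrez ID. A RefSeq table of GRCh38.p14 gave symbols for 27559 of 27685 IDs and was used for names and promoters only, and gene and exon coordinates are those of the files. A pseudocount of 1 was added before ratios were formed, and genes under a TPM of 1 in both libraries were left out. The number of fragments was estimated by multiplying coverage by length and dividing by 202 bases, taken as 2 mates of 101 bases, which gave 28187793 fragments for DMSO and 23721989 for JIB-04. This is an estimate, as 29.9% and 29.0% of weakly covered genes with 1 transcript had aligned bases within 2 of a whole multiple of that number. Intervals are 95% exact conditional binomial (Clopper-Pearson) intervals of these fragments, on the scale of TPM + 1. Exon coverage was turned into the TPM scale by one factor per library.

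The members and lists were chosen with earlier results of these data known. Named are all 36 members, their transcripts where at least 2 reached a TPM of 1, and of every other list the 2 lowest and the 2 highest genes whose mean TPM reached 5, plus those said to be picked later. Of the transcripts, those in members whose leading one differed or whose share changed by at least 20 percentage points are given, and the rest as a range, a limit set after their values were seen. AFP, HNF4A, ALB, PTPRC and SLX1B were named outside the rule after their values were seen. SHLD3, of the end joining list, was not used here, and some genes and 1 list are not reported here. Libraries were grouped by title. The alternatives were other pseudocounts, filters, scalings, units, thresholds and gene summaries. The ratio and interval steps were tested on simulated data. The software was SciPy 1.17.1, pandas 2.3.3, numpy 2.4.6 and matplotlib 3.10.9 under Python 3.11.15.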

Additional observations from a re-analysis of the deposited data

How the results depend on the processing

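Of the 36 members, 8 were at least 2-fold lower. Each count is followed by the share of all genes in the same setting, which was 6.88% here. With a pseudocount of 0.1 the count was 13 (9.94%) and with one of 5 it was 2 (2.83%), since a larger pseudocount shrinks the ratios of weak genes by construction. At 1.5-fold it was 27 (21.0%) and at 3-fold 0 (1.07%). Setting the median gene to 0 left 6 (4.70%), quantile normalization 6 (5.25%), FPKM 7 (4.81%), the most abundant transcript 11 (8.97%), no filter 8 (3.59%) and a minimum TPM of 5 again 8 (6.99%). Alternatives chosen after seeing the data gave 9 (6.52%) with the share of all fragments, 10 (6.33%) in the 5′ part of the exonic bases and 9 (8.24%) in the 3′ part. No member was 2-fold higher under any of these. The members' median log2 ratio of -0.72 was -0.54 with a pseudocount of 5 and from -0.83 to -0.59 under the others, and it lay 0.43 to 0.72 below the median of all genes wherever both were computed. The 0.72 came without a filter, where genes under a TPM of 1 also counted and the median of all genes was 0. The share of 3.59% without a filter includes those weak genes too. Setting the median gene to 0 also lowered the count of 2-fold lower genes from 2 to 0 for crosslink repair, 3 to 1 for nucleotide excision repair, 4 to 1 for base excision repair, 2 to 1 for hepatocyte markers, 9 to 6 for proliferation markers and 5 to 4 for the other homologous recombination factors, and left 3 for the damage signaling adaptors and 1 for end joining. Depth limits RAD51B most, with 147 and 62 estimated fragments. No paired analysis was possible because each condition has 1 library. For the same reason no library could be left out.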
